A study of Mus musculus with 12 samples.

Results

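The Ddx and Dhx genes encode the DEAD-box and DEAH-box RNA helicases, enzymes that use ATP to open RNA duplexes or to strip proteins from RNA. They were followed in mouse bone marrow derived macrophages (BMDM) treated with interferon-beta (Ifn-β), one of the type I interferons, which are secreted on viral infection. A gene was included where a transcript cluster of the array (the group of probes that measures 1 gene) carried exactly 1 gene symbol and that symbol was Ddx or Dhx followed by a number. Ddx58 and Dhx58, which belong to the RIG-I-like receptors, were set aside. This gave 43 genes, 29 Ddx and 14 Dhx, out of the 14860 genes that were measured under 1 symbol. Ddx19b was the only gene with more than 1 cluster and is given by the brighter one; its other cluster passed no test at any time.

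The cells came from male Balb-C mice 8 to 9 weeks old, were grown with Csf1 (the macrophage growth factor), and received 10 U/ml of recombinant mouse Ifn-β on day 7 of culture. RNA was taken before treatment (0 h) and at 1, 2, 4, 8 and 24 h, with 2 arrays a time and 12 arrays in all. The 2 arrays of a time are labelled as biological replicates from separate wells, and whether the wells held cells of different animals is not stated, so the spread between them may be that between wells. All arrays after 0 h had Ifn-β, and time in culture and time after Ifn-β cannot be told apart. The Affymetrix exon arrays give 1 log2 level per transcript cluster and no counts, and the precision is set by how many arrays there are. Of the macrophage markers, 7 of 8 were measured, and their median level at 0 h lay at percentile 98.5 of all 23332 clusters. It lay at percentile 39.9 for 4 T cell, 43.7 for 3 B cell, 52.4 for 4 neutrophil, 51.3 for 4 fibroblast and 21.7 for 2 NK cell markers. The ranges overlap, from 60.5 to 99.9 for the macrophage and from 17.9 to 89.0 for the T cell markers, the highest of which is Cd28. Over time, the macrophage marker Fcgr1 was higher at all 5 times and Cd14 lower at 4 and 8 h, and Cd28 was lower at 4 h and higher at 24 h. The 4 neutrophil markers did not pass at 24 h, when their median change was -0.40 on the log2 scale. S100a8 was then at -1.25 and S100a9 at -0.92 (limma adjusted p = 0.0548 and 0.11), and Elane and Mpo were at 0.41 and 0.12. The part of these markers in the changes below was not tested. Probes differ in brightness, so these percentiles are a rough check and levels of different genes are not compared below.

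Most members of the family work in steps that every cell needs. Some remodel the spliceosome, others act in the nucleolus or the mitochondrion while ribosomes are assembled, and others export, translate or degrade mRNA. A few are also reported to sense viral RNA or DNA or to act in the signalling that leads to interferon. RIG-I (Ddx58) and MDA5 (Ifih1) are the established helicases of that kind, and they detect viral RNA in the cytosol. Many of the genes that type I interferon induces carry near their start an element made of repeated GAAA units, the interferon-stimulated response element.

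The promoters of the gene that rose and of the gene that fell furthest are shown because the RefSeq promoters differ in this element. The sequences are the 150 bases before the RefSeq start site in build GRCm38.p6, 5′ to 3′ on the strand of the gene, with each match to GAAANNGAAA in capitals. Ddx60 lies at chr8:61927937-61928086 on the plus strand and Dhx40 at chr11:86807661-86807810 on the minus strand.
Ddx60: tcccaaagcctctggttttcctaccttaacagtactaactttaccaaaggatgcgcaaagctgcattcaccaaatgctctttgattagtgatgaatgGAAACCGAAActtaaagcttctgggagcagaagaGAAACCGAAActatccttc
Dhx40: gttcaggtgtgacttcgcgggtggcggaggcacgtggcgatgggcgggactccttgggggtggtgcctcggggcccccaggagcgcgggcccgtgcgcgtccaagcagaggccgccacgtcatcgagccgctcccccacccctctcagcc
Ddx60 held 2 copies of the element, GAAACCGAAA each, beginning at positions -53 and -19 from the start site, and the Dhx40 stretch held none. The element was searched on both strands (as TTTCNNTTTC on the other) over the 250 bases before and 50 after each start site. RefSeq promoters were matched for 38 of the 43 genes, and Ddx60 was the 1 gene of the 38 (2.63%) with a match. Over all promoters of the same length, 1079 of 27025 genes (3.99%) had one. Of the RIG-I-like receptors, Ddx58 and Ifih1 were matched and each had a match downstream of its start site. The list of 20 other RNA helicases taken up below, 13 of them measured, held 16 with a promoter, and 0 of the 16 had a match. Whether those that rose are among the 16 is not given here. A match is a description of the letters, and binding was not measured.

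Across the family, 3 of the 43 genes passed the test at any time against 0 h, and 40 passed at none. A gene was counted as higher or lower at a Benjamini-Hochberg adjusted p under 0.05 over all clusters and a change of at least 1.5-fold (limma, two-sided). Ddx60 was higher at 2, 4, 8 and 24 h, and Dhx40 and Ddx11 were lower at 4 h. At 1 h 0 of 43 were higher and 0 lower, where 0.467% and 0.0814% of all clusters were, and 0 passed at 1.5-fold with an unadjusted p under 0.05. At 2 h 1 was higher and 0 lower, against 1.54% and 0.621% of all clusters. At 4 h, the time with the most calls among all clusters, 1 was higher and 2 were lower, against 3.59% and 3.95%. At 8 h 1 was higher and 0 lower (all clusters 1.5% and 0.544%), and at 24 h again 1 and 0 (0.613% and 0.836%). These shares of the family are near those of all clusters. At an unadjusted p under 0.05 and 1.5-fold, Ddx28 would also be lower at 2 h and Ddx4 higher at 4 h, and 0 genes would be lower at 8 or 24 h. The RNA is that of whole cultures, so a level cannot be split into the number of cells that express a gene and the RNA in each. A test of any change over the 6 times (moderated F) called 1 of 43, Ddx60, against 7.84% of all clusters. This count was 5 without array 10 or without array 12, the arrays of 2 h, and 4 without both.

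Ddx60, reported in human cells as an interferon-induced antiviral helicase that aids RIG-I signalling, rose about 12-fold by 4 h. Its log2 level was 7.10 and 6.64 before treatment, 7.19 and 7.15 after 1 h, 8.82 and 8.36 after 2 h, 10.57 and 10.44 after 4 h, 9.41 and 9.50 after 8 h, and 8.17 and 7.84 after 24 h. Both arrays at each time stood above both 0 h arrays, the 4 h arrays were the highest, and no array of 8 h overlapped with those of 4 h. The change from 0 h was 0.30 at 1 h (95% interval -0.16 to 0.76, adjusted p = 0.984), 1.72 at 2 h (1.26 to 2.18, adjusted p = 0.00287), 3.64 at 4 h (3.17 to 4.10, adjusted p = 1.59e-05), 2.59 at 8 h (2.12 to 3.05, adjusted p = 0.00025) and 1.14 at 24 h (0.67 to 1.60, adjusted p = 0.0373), all on the log2 scale with a standard error of 0.20 and 2 arrays a time (limma). In folds these are 3.29, 12.4, 6.00 and 2.20 from 2 h on. The level at 8 h was 1.05 lower than at 4 h on the log2 scale (limma adjusted p = 0.0281), and Ddx60 was the 1 member lower at 8 h than at 4 h, against 1.62% of all clusters.

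The calls of Ddx60 at 2, 4 and 8 h held without any 1 array, with a change at 4 h between 3.41 and 3.87. At 24 h the call was kept in the fit without both 2 h arrays (limma adjusted p = 0.02). Leaving out only array 10 or only array 12 gives the same estimates for this change. The call was lost without any other 1 array. Without array 2, 4, 17 or 22, those of 0 and 24 h, the change was 0.91 to 1.37. Without array 5, 8, 15, 16, 18 or 23, those of 1, 4 and 8 h, it stayed at 1.14 and only the estimated spread moved. Leaving out either array of a time that is not compared gives the same estimates, so such pairs are not separate checks. That holds for the fall from 4 to 8 h too. The fall from 4 to 8 h passed without array 2, 4, 10, 12, 17 or 22, and without array 5, 8, 15, 16, 18 or 23 its adjusted p was 0.0542 to 0.184.

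**Figure D1:**
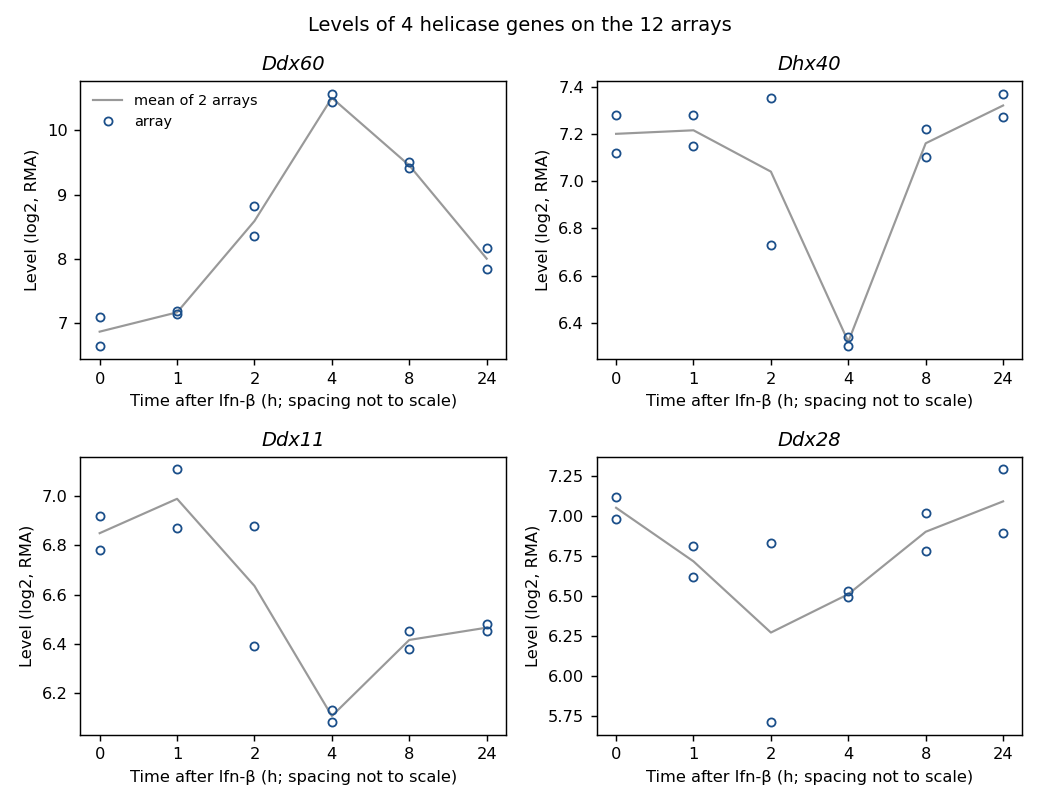
Log2 level (y axis, RMA) of Ddx60, Dhx40, Ddx11 and Ddx28 on each array against time after Ifn-β in hours (x axis, spacing not to scale), with circles for single arrays and a line through the mean of the 2 arrays. Ddx60 goes from 6.64 and 7.10 at 0 h to 10.44 and 10.57 at 4 h, Dhx40 and Ddx11 are lowest on both 4 h arrays, and the wide pairs of Dhx40, Ddx11 and Ddx28 at 2 h are arrays 10 (upper) and 12 (lower).

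Dhx40, a DEAH-box helicase whose role is little established, was at its lowest at 4 h. The log2 level was 7.28 and 7.12 before treatment, 7.28 and 7.15 after 1 h, 7.35 and 6.73 after 2 h, 6.30 and 6.34 after 4 h, 7.10 and 7.22 after 8 h, and 7.37 and 7.27 after 24 h. Only the 4 h arrays lay clear of the other times, with no overlap. The level fell by 0.88 on the log2 scale at 4 h (standard error 0.19, 95% interval -1.30 to -0.46, limma adjusted p = 0.022), or 1.84-fold. The change was -0.04 at 8 h (limma adjusted p = 0.956), and the level at 8 h was 0.84 above that of 4 h (limma adjusted p = 0.0479). Dhx40 was the 1 member higher at 8 h than at 4 h, against 1.68% of all clusters.

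Ddx11 carries the family name but is a DNA helicase that acts in sister chromatid cohesion and at the replication fork. Its levels were 6.92 and 6.78 before treatment, 7.11 and 6.87 after 1 h, 6.88 and 6.39 after 2 h, 6.13 and 6.08 after 4 h, 6.45 and 6.38 after 8 h, and 6.48 and 6.45 after 24 h. All 6 arrays from 4 h on were below both 0 h arrays. The level fell by 0.75 on the log2 scale at 4 h (standard error 0.16, 95% interval -1.12 to -0.37, limma adjusted p = 0.0259), or 1.68-fold, and the changes of -0.44 at 8 h (limma adjusted p = 0.279) and -0.39 at 24 h (limma adjusted p = 0.357) did not pass.

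Both falls at 4 h depended on having 2 arrays at 0 h and at 4 h. Without array 2, 4, 15 or 16 the limma adjusted p of Dhx40 was 0.0679 to 0.142 at a change of -0.96 to -0.80, and that of Ddx11 was 0.0751 to 0.159 at a change of -0.82 to -0.68. The rise of Dhx40 from 4 to 8 h passed only without array 10 or 12 among the fits with 1 array left out. Those 2 fits give the same estimates for this change, and the call was lost in all the others.

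The 40 other genes passed no test, which does not show that they did not change; the intervals show how far their changes are bounded by 2 arrays a time. For 38 of the 43 the highest and lowest time means were under 1.5-fold apart, and the 5 that spanned more were Ddx60, Dhx40, Ddx11, Ddx28 and Ddx4. The 95% interval of the change lay within 1.5-fold in either direction at all 5 times for 28 genes and within 2-fold for 38. At 4 h it lay within 1.5-fold for 31 and within 2-fold for 38, and for 12 genes it reached 1.5-fold or beyond. Those 12 are the 3 that passed and Ddx28, Ddx4, Ddx5, Dhx8, Ddx56, Dhx33, Ddx27, Ddx19b and Ddx10. Counts by range or interval were not made over all clusters, so they do not show whether the family was steadier than other genes. The median standard error of the change was 0.14 for the 43 genes and 0.167 for all clusters.

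**Figure D2:**
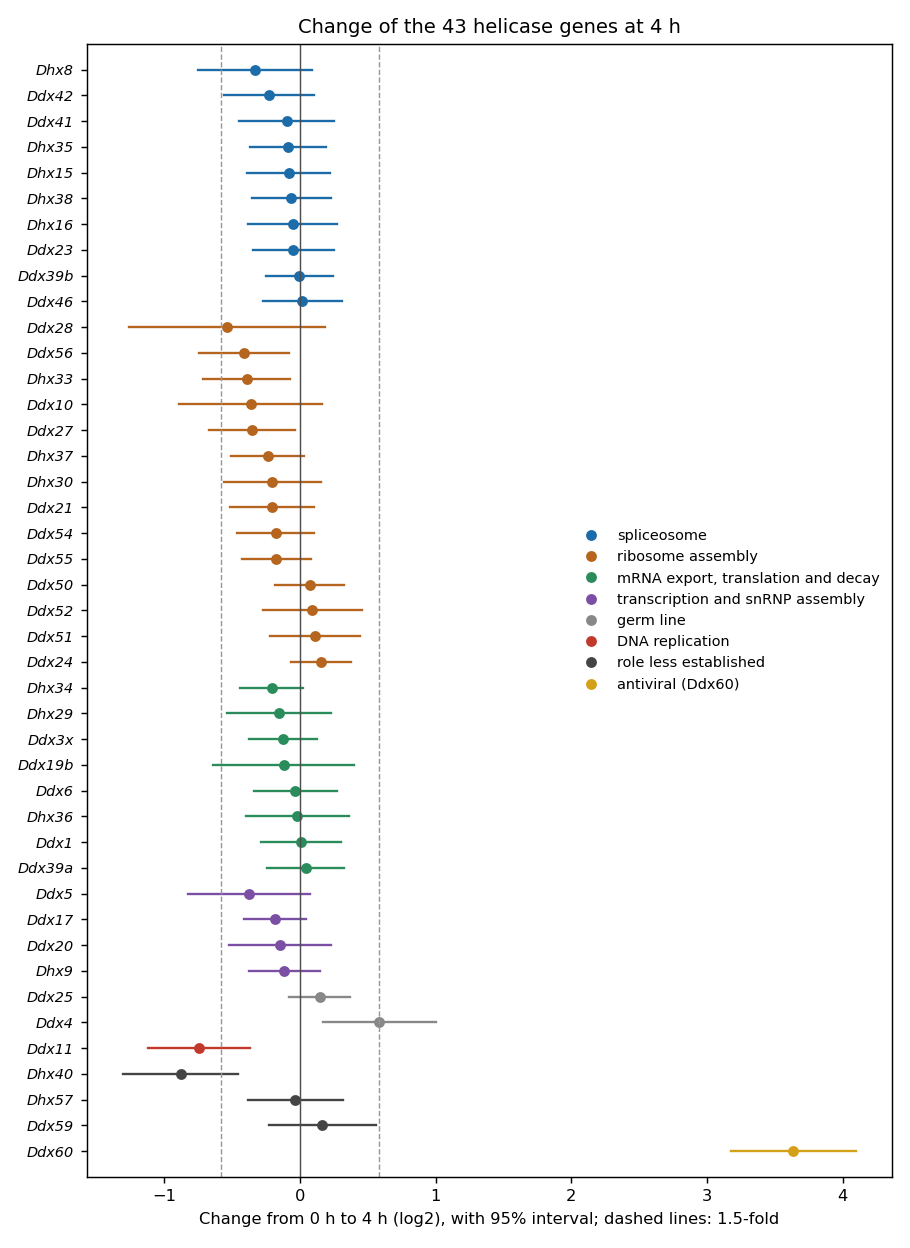
Change from 0 h to 4 h (x axis, log2) of the 43 helicase genes, 1 per line and coloured by role, with points for the difference of the means of 2 arrays, bars for the 95% interval of the limma fit and dashed lines at 1.5-fold. Ddx60 stands at 3.64, Dhx40 and Ddx11 at -0.88 and -0.75, and the other 40 between -0.54 and 0.59.

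Of the spliceosome helicases 10 were measured and 0 passed in either direction at any time. At 4 h their median change was -0.08, beside -0.07 for all clusters, from -0.33 for Dhx8, which releases the finished mRNA from the spliceosome, to 0.02 for Ddx46, which acts when the spliceosome first forms on the branch site. Dhx8 read 8.00 and 8.00 before treatment, 8.04 and 7.87 after 1 h, 7.90 and 7.30 after 2 h, 7.59 and 7.75 after 4 h, 8.00 and 8.15 after 8 h, and 8.07 and 8.00 after 24 h. Its change was -0.40 at 2 h (limma adjusted p = 0.414). It was -0.70 without array 10 (limma adjusted p = 0.0282) and -0.10 without array 12 (limma adjusted p = 0.819). Dhx38, which drives the second step of splicing, was highest at 8 h with a change of 0.26 (limma adjusted p = 0.43).

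Ribosome assembly was the largest group, with 14 genes and 0 passing in either direction at any time. Their median change at 4 h was -0.21, beside -0.12 for the 43 genes and -0.07 for all clusters. Of the 14 means 10 were below 0 h, as were 32 of all 43. At 8 h the median of the 14 was -0.03. The widest change was that of Ddx28, a helicase of mitochondrial ribosome assembly, which read 7.12 and 6.98 before treatment, 6.81 and 6.62 after 1 h, 6.83 and 5.71 after 2 h, 6.53 and 6.49 after 4 h, 6.78 and 7.02 after 8 h, and 6.89 and 7.29 after 24 h. Its change of -0.78 at 2 h (standard error 0.31, limma adjusted p = 0.334) came from 2 arrays that were 1.12 apart, the widest gap of any member at that time. It was -1.34 without array 10 (limma adjusted p = 0.0146) and -0.22 without array 12 (limma adjusted p = 0.719). At 4 h Ddx28 was at -0.54 (limma adjusted p = 0.359). Ddx56 (-0.42), Dhx33 (-0.40) and Ddx27 (-0.36), nucleolar helicases that act on ribosomal RNA or its transcription, had limma adjusted p of 0.126, 0.132 and 0.17 at 4 h. At the other end Ddx24, also nucleolar, was at 0.16 at 4 h and 0.31 at 8 h (limma adjusted p = 0.195).

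The 8 helicases of mRNA export, translation and decay gave 0 calls at any time and a median change of -0.08 at 4 h, from -0.21 for Dhx34, which acts in nonsense-mediated decay, to 0.04 for Ddx39a, an mRNA export helicase. The changes of Ddx3x, a translation factor, lay between -0.20 and 0.08 over the 5 times, and those of Ddx6, which represses and helps to degrade mRNA in P bodies, between -0.11 and 0.23. Probes of Ddx3x and Ddx19b may also take up RNA of their close copies Ddx3y and Ddx19a, which were not analysed here. Ddx39a read 9.15 and 9.04 before treatment, 9.22 and 9.08 after 1 h, 9.26 and 8.94 after 2 h, 9.15 and 9.12 after 4 h, 8.96 and 8.95 after 8 h, and 8.58 and 8.60 after 24 h. Both 24 h arrays were below those of all other times, with a change of -0.51 (95% interval -0.79 to -0.22, limma adjusted p = 0.102) that passed neither threshold.

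The 4 genes of transcription and snRNP assembly had 0 calls and a median change of -0.17 at 4 h, beside -0.07 for all clusters. All 4 means were below 0 h at 2, 4 and 24 h, as were 28, 32 and 29 of the 43. Ddx5, a co-regulator of transcription and splicing, was lowest in the group, with changes of -0.48 at 2 h, -0.38 at 4 h and -0.36 at 8 h (limma adjusted p = 0.351, 0.303 and 0.493). Ddx20, a part of the SMN complex that builds snRNPs, was at -0.31 at 8 h and -0.30 at 24 h (limma adjusted p = 0.465 and 0.482). Its interval at 8 h ran from -0.68 to 0.06. Of the genes with a less established role, Dhx57 and Ddx59 passed at no time, and Ddx59 had its largest change at 1 h, 0.27 (limma adjusted p = 0.979).

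Ddx4 and Ddx25 mark the germ line, Ddx4 as the mouse form of Vasa and Ddx25 as a helicase of spermatids, and neither passed at any time. Ddx4 read 3.22 and 3.09 before treatment, 3.02 and 3.35 after 1 h, 3.81 and 3.38 after 2 h, 3.88 and 3.60 after 4 h, 3.77 and 3.58 after 8 h, and 2.94 and 3.05 after 24 h. These readings are near the low end of the deposited values, which run from 0.81 to 14.20, and the files give no limit of detection. The change was 0.59 at 4 h, at the 1.5-fold line, with a limma adjusted p of 0.0918. In the fit without both 2 h arrays it passed (limma adjusted p = 0.0439). Leaving out only array 10 or only array 12 gives the same estimates for this change and is no separate check. Ddx25 stayed between 0.13 and 0.24 above 0 h at all 5 times (limma adjusted p = 0.438 to 0.724).

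**Figure D3:**
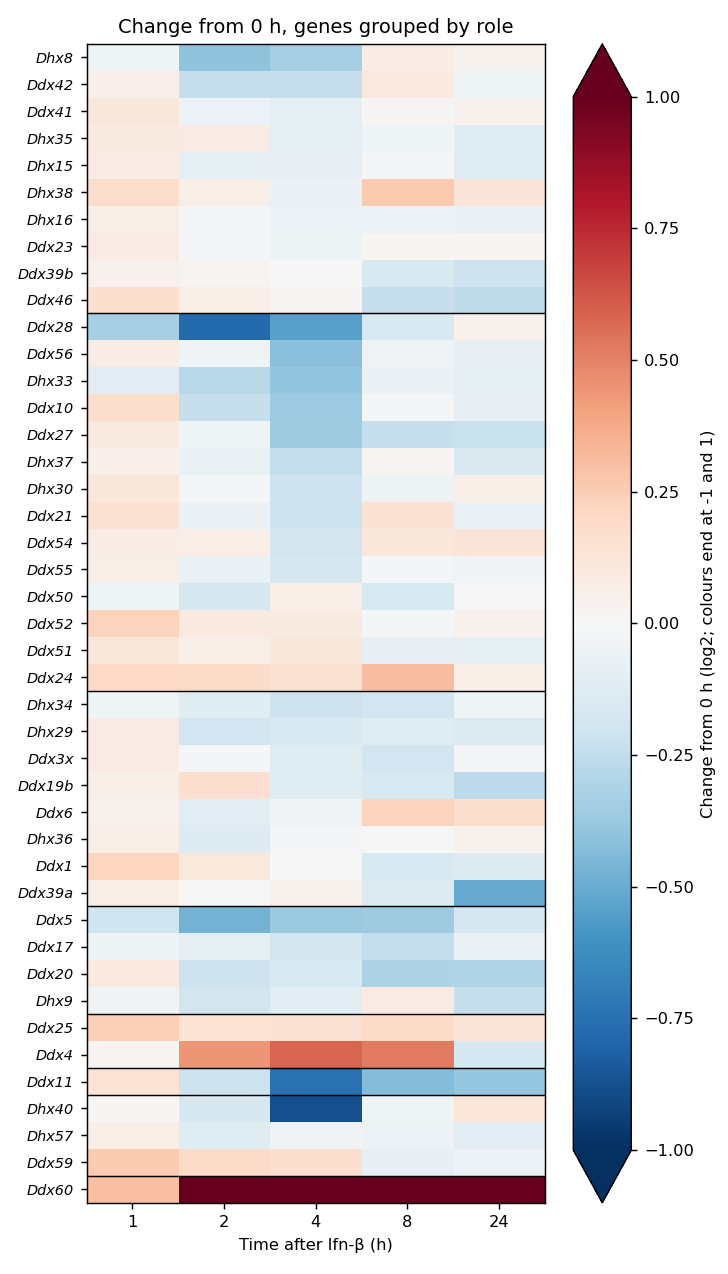
Change from 0 h (colour, log2, ending at -1 and 1) of the 43 helicase genes (rows, grouped by role with lines between groups) at 1, 2, 4, 8 and 24 h after Ifn-β (columns). The row of Ddx60 is beyond the red end of the scale from 2 h on, the deepest blue fields are Dhx40 (-0.88) and Ddx11 (-0.75) at 4 h and Ddx28 (-0.78) at 2 h, and most other fields are pale.

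Of 13 members that have been reported in the sensing of nucleic acid or in antiviral signalling, Ddx60 was the 1 that passed, at 2, 4, 8 and 24 h. The other 12 were Ddx1, Ddx3x, Ddx21, Ddx23, Ddx24, Ddx41, Dhx9, Dhx15, Dhx16, Dhx29, Dhx33 and Dhx36, and the median of the 13 at 4 h was -0.09. Ddx41, reported as a DNA sensor in mouse myeloid cells, had a change of -0.10 at 4 h with an interval from -0.45 to 0.25. For Dhx9, a nuclear helicase also reported to sense nucleic acid, the change was -0.12 (interval -0.38 to 0.15), and for Dhx36, which unwinds G-quadruplexes, it was -0.02 (interval -0.40 to 0.36). Not all of the 12 lay this near 0. Dhx33 was at -0.40 at 4 h (interval -0.72 to -0.07, limma adjusted p = 0.132). Ddx24 was at 0.31 at 8 h (interval 0.08 to 0.53, limma adjusted p = 0.195).

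The RIG-I-like receptors rose at every time. Ddx58 (RIG-I) changed by 1.08, 2.06, 2.86, 1.96 and 1.21 at 1, 2, 4, 8 and 24 h, and its limma adjusted p was 0.0027 at 1 h and 0.00221 at 24 h. Dhx58, which modulates the other receptors, changed by 0.88, 1.67, 2.51, 1.69 and 0.94 (limma adjusted p = 0.0172 at 1 h). Ifih1 changed by 0.94, 2.10, 3.46, 2.05 and 1.01 (limma adjusted p = 0.00357 at 1 h). At 1 h these 3 had passed while Ddx60, at 0.30, had not, and whether the changes differ between the genes was not tested. All 3 were lower at 8 h than at 4 h.

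Among 20 further RNA helicases outside the Ddx and Dhx names 13 were measured, and 3 of them passed, all upwards. At 4 h 3 of the 13 were higher and 0 lower, where 3.59% and 3.95% of all clusters were. Helz2, a co-activator of nuclear receptors, rose by 1.02, 1.66, 2.53 and 1.32 at 1, 2, 4 and 8 h. Mov10, a helicase that restricts retroviruses and retrotransposons, rose by 0.77, 1.64 and 1.87 at 2, 4 and 8 h. Ascc3, a helicase of DNA repair and of the rescue of stalled ribosomes, rose by 0.98 at 4 h (limma adjusted p = 0.00537) and 1.21 at 8 h (limma adjusted p = 0.00402). At 24 h 0 of the 13 passed, with Mov10 still at 0.64 and Helz2 at 0.50 (limma adjusted p = 0.0762 and 0.0749). Ascc3 was then at 0.13 (limma adjusted p = 0.773).

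The 43 genes leaned together within arrays. At 4 h both arrays lay below both 0 h arrays for 20 genes (46.5%) and above both for 5 (11.6%), where 35.7% of all clusters lay below and 19.6% above. The median change of the 43 was 0.08, -0.06, -0.12, -0.05 and -0.07 at the 5 times in order, beside 0.03, -0.02, -0.07, -0.01 and 0.01 for all clusters. The highest mean fell at 1 h for 26 of the 43 genes (60.5%) and for 21.7% of all clusters, and the lowest at 4 h for 15 (34.9% against 28.1%). No gene had its lowest mean at 1 h, and, as given above, 0 passed the test at that time. These counts describe genes that share the same 12 arrays.

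The same lean was present between the 2 arrays of a time. Array 10 read above array 12 at 2 h for 42 of the 43 genes, by a median of 0.36 (all clusters 0.17). Array 2 read above array 4 at 0 h for 39, by 0.16 (all clusters 0.06). Array 17 read above array 22 at 24 h for 37, by 0.11 (all clusters 0.05). Array 5 read above array 8 at 1 h for 34, by 0.08 (all clusters 0.04). The share of all clusters that leaned the same way was not counted. At 4 and 8 h the pairs were nearly even, with medians of -0.03 and -0.01. The upper quartile of all clusters differed between arrays, from 7.77 on array 12 to 8.15 on array 10, while the array medians lay between 5.84 and 5.90. The median level of the 43 genes ran from 8.06 on array 22 to 8.65 on array 10.

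**Figure D4:**
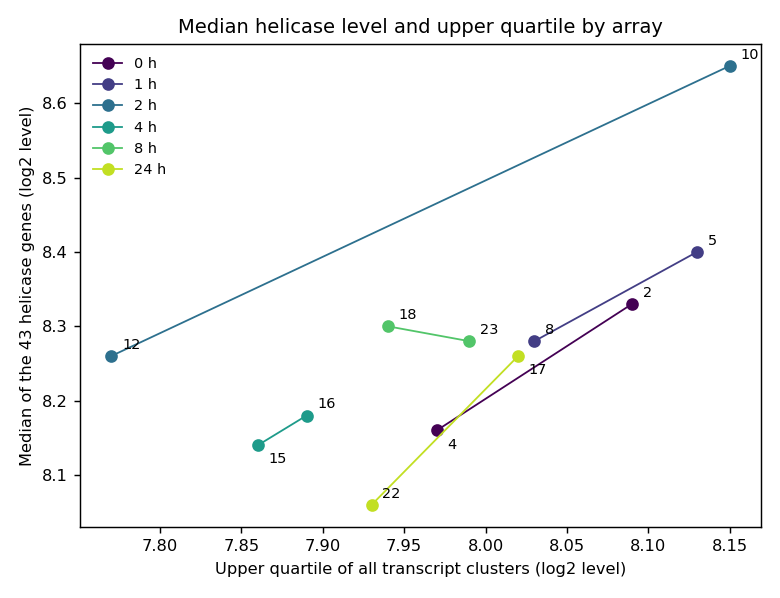
Median log2 level of the 43 helicase genes (y axis) against the upper quartile of all 23332 clusters (x axis, log2) for each of the 12 arrays, labelled by array number, with a line joining the 2 arrays of a time. Array 10 is highest on both axes (8.65 and 8.15) and array 12, of the same time, has the lowest upper quartile (7.77).

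When the deposited values were quantile normalised once more, the lean shrank in the pairs of 0, 1, 2 and 24 h. Array 10 was then above array 12 for 29 genes with a median difference of 0.04, and array 2 above array 4 for 32 with a median of 0.06. At 8 h array 18 was above array 23 for 28 genes, in place of 19, with a median of 0.03. The highest mean fell at 1 h for 10 genes in place of 26 (all clusters 13.6%). The lowest mean fell at 4 h for 10 in place of 15 (all clusters 21.5%). Other counts grew, among them the highest mean at 8 h, 10 genes in place of 6 (all clusters 12.7%). The lowest mean fell at 24 h for 11 in place of 10 (all clusters 12.8%) and at 2 h for 10 in place of 9 (all clusters 12.9%). At 4 h 25 means were below 0 h in place of 32, with a median of -0.03 (all clusters -0.006). Ddx60, Dhx40 and Ddx11 passed at 4 h there too, with -0.74 for Dhx40 and -0.64 for Ddx11. The part of array brightness in the shared lean was not tested further.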

How the data were processed

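Macrophage RNA was measured on 12 Affymetrix Mouse Exon 1.0 ST arrays, 2 at each of 6 times. The authors ran RMA, which corrects background, quantile normalises and summarises probes by median polish, in the Affymetrix Expression Console at the core gene level and deposited the log2 values; versions and build are not given in the sources used here. The 23332 values per array lie between 0.81 and 14.20 and were used as deposited, with no filter. Their upper quartiles still ran from 7.77 on array 12 to 8.15 on array 10. Why they differ after the normalization described was not tested. Of the clusters, 14996 carried exactly 1 symbol in the platform annotation, 1019 several and 7317 none. All 43 symbols equalled the RefSeq symbol of their gene ID. Another 8 genes of the family (Ddx18, Ddx19a, Ddx31, Ddx3y, Ddx43, Ddx47, Ddx49 and Dhx32), and 2 clusters that pair a family symbol with others, were not analysed here.

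Times were compared with limma 3.58.1 in R 4.3.3 (lmFit and eBayes, all 12 arrays, 6 groups, residual degrees of freedom 6, prior 2.31), two-sided, with Benjamini-Hochberg adjustment over all clusters within a comparison. The procedure was tested on simulated data. Array numbers are those of the labels. The genes and lists were chosen with earlier results of these data known. Values on every array are given for genes that passed and for some of those with the 3 largest rises or falls at a time that kept both arrays on 1 side of both 0 h arrays; of a role group the extremes at 4 h, and of a list the genes that passed, are named. Dhx57, Ddx10, Ddx19b, Ddx3x, Ddx6, Ddx41, Dhx9, Dhx36, Ddx56, Dhx33, Ddx27 and Dhx34 fall partly outside that rule and were named after their values were seen. The same holds for the neutrophil markers. Promoters are RefSeq sequences of GRCm38.p6, and Ddx11, Ddx23, Ddx39a, Ddx6 and Dhx38 were not matched. A search of protein sequences was planned and not run. The results were also computed at an unadjusted p, with a fold threshold of 2 or none, with arrayWeights, with trend and robust in eBayes, after quantile normalization again, with arrays centred on their medians, without the lowest 30% of clusters, with clusters of a gene averaged, and with each array left out in turn. A fit without both 2 h arrays, and the times of the highest and lowest means after quantile normalization, were added after seeing the data. Tables and plots were made with pandas 2.3.3, numpy 2.4.6 and matplotlib 3.10.9 in Python 3.11.15.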

Additional observations from a re-analysis of the deposited data

How the results depend on the processing

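Precision is limited by 2 arrays a time. Ddx60 at 2, 4 and 8 h passed under every alternative and without any 1 array. Of the 13 counts of family members, 0 reversed, and those not named here stayed within 1.5 times their value. With an unadjusted p the count lower at 2 h was 1 (Ddx28) in place of 0, the count higher at 4 h was 2 in place of 1 (Ddx4 joined Ddx60), and the count changed over the 6 times was 4 in place of 1. With array weights, which gave arrays 10 and 12 a weight of 0.341, these last 2 counts were 2 and 4, and in the fit without both 2 h arrays, chosen after seeing the data, also 2 and 4. The count changed over the 6 times was 3 with trend and robust, after quantile normalization again and with the lowest 30% of clusters left out. At 2-fold 0 genes were lower at 4 h and 0 were higher at 8 h than at 4 h. With arrays centred on their medians 0 were higher at 8 h than at 4 h (Dhx40, limma adjusted p = 0.0578). Leaving out 1 array in turn, the count lower at 2 h ran from 0 to 2, higher at 4 h from 1 to 2, lower at 4 h from 0 to 2, higher at 24 h from 0 to 1, higher and lower at 8 h than at 4 h each from 0 to 1, and changed over the 6 times from 1 to 5. In those fits a time left with 1 array borrows its spread from the rest. The cause of these shifts was not tested. No paired analysis was possible because the arrays of different times share no replicate number.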
